A study of Mus musculus with 12 samples.

Results

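The kinesin and dynein motors are the protein engines that move cargo along microtubules. In the deposited gene count table, 69 of 54532 rows were protein-coding genes whose symbols begin with Kif and a digit or c, are Klc1 to Klc4, begin with Dync or Dynl, or are Dctn1 to Dctn6. This rule uses names and gene type and no measured value, but it was chosen with earlier results of these data known. The 69 genes comprised 19 kinesin chains of axonal transport, 20 subunits of cytoplasmic dynein and dynactin, 8 motors of the cilium, 14 mitotic kinesins and 8 other genes. The last group holds Kif1bp, a kinesin-binding protein that is not itself a motor. The axonal group also holds Kif17, a dendritic motor in mice. Of the 69, 61 passed the filter on low counts and were tested.

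Most kinesins walk towards the plus ends of microtubules, which in an axon point away from the cell body, and so carry vesicles, mitochondria and cytoskeletal proteins outwards. Cytoplasmic dynein, with its activator dynactin, carries endosomes, autophagosomes and trophic signals back to the cell body. Sensory neurons have some of the longest axons in the body, and variants of KIF5A, KIF1A, DYNC1H1 and DCTN1 cause human disorders of nerve cells. A separate set of kinesins builds the spindle and separates daughter cells, and adult neurons do not divide.

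RNA came from dorsal root ganglia (DRGs), which hold the cell bodies of sensory neurons, of C57BL/6 mice, and was sequenced as 6 DAAO and 6 control libraries. The DAAO libraries are labelled with the genotype DAAO-TGCdh5, and their sample names also carry Cdh5_Cre. The control libraries are labelled CDH5-Cre, and the treatment label of both groups is D-Alanine. DAAO is D-amino acid oxidase, an enzyme whose oxidation of D-alanine yields hydrogen peroxide, and Cdh5 encodes the cadherin of vascular endothelium, whose promoter is used to drive Cre in endothelial cells. The labels give neither age nor sex and do not tie libraries to separate animals, so the p-values speak of the spread among these libraries, which may be technical.

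The libraries held between 13227518 and 23884927 counts. Xist and the sum of 4 Y-linked genes both exceeded 10 CPM (counts scaled by library size) in 5 libraries, namely DAAO 1, 2 and 6 and controls 1 and 2, so a library is not shown to be 1 animal. All 14 markers of a pan-neuronal list, which check the tissue label, passed the filter. Their median log2 fold change was -0.20, with 1 of them lower in DAAO (Snap25, -0.61, adjusted p = 0.0498). Leaving out any 1 library other than DAAO 4 or control 2 ended the call of Snap25 (adjusted p from 0.0547 to 0.166 in those 10 fits). The summed CPM of 6 oligodendrocyte markers ran from 88.1 to 634 in DAAO and from 13.6 to 2293 in controls, and that of 8 skeletal muscle markers from 4.79 to 444 in DAAO and from 13.5 to 2637 in controls. With the pan-neuronal, oligodendrocyte or muscle level as a covariate, 0 motor genes were called, as in the fit without it. Over all genes the shares called with these covariates were 0.559%, 1.04% and 0.612%, so 0 among 61 genes says little about tissue composition. In bulk tissue, fewer cells of a type and less RNA per cell cannot be told apart.

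In both groups the motor transcripts of the DRGs were led, per gene length, by Klc1, Dynll2, Dynlrb1 and Kif5a, and no motor gene passed the comparison of DAAO with control by edgeR's quasi-likelihood test. None of the 61 tested genes passed an adjusted p of 0.05, against a background of 0.753% of all 17002 genes tested (128 genes; 0.506% higher and 0.247% lower in DAAO). That 128 became 78, 65, 73 and 61 without DAAO 1, 2, 3 and 6, and 80, 322 and 77 without controls 1, 2 and 5. An unadjusted p under 0.05 was reached by 6 motor genes, or 9.84%, against 10.3% of all genes: 3 were higher, against 5.44% of all genes, and 3 lower, against 4.87%. DESeq2 also called 0 motor genes, against 2.31% of all genes, and had 9 at an unadjusted p under 0.05 (14.8%, against 11.5% of all genes). Limma-voom with sample weights called 0, against 1.81% of all genes, and had 16 at an unadjusted p under 0.05 (26.2%, against 17% of all genes). In 0 of the 61 did the 2 groups fail to overlap, against 1.45% of all genes. The median log2 fold change of the 61 was -0.03, beside 0.00 over all genes, and 37 of them (60.7%) were negative, against 49.6% of all genes.

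The 95% intervals show how large a change these libraries leave possible. The interval of the fold change lay within 2-fold in both directions for 45 of the 61 motor genes, against 68.6% of all genes, and within 1.5-fold for 27, against 43.5%. All 18 tested axonal kinesins were within 2-fold and 11 were within 1.5-fold. For dynein and dynactin these counts were 15 and 12 of 19, and the 4 subunits outside 2-fold were the Dynlt1 copies. For the mitotic kinesins they were 3 and 0 of 10, and no mitotic kinesin exceeded 15.1 CPM in any library. The smallest adjusted p of any motor gene was 0.248, that of Kif19a.

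**Figure D1:**
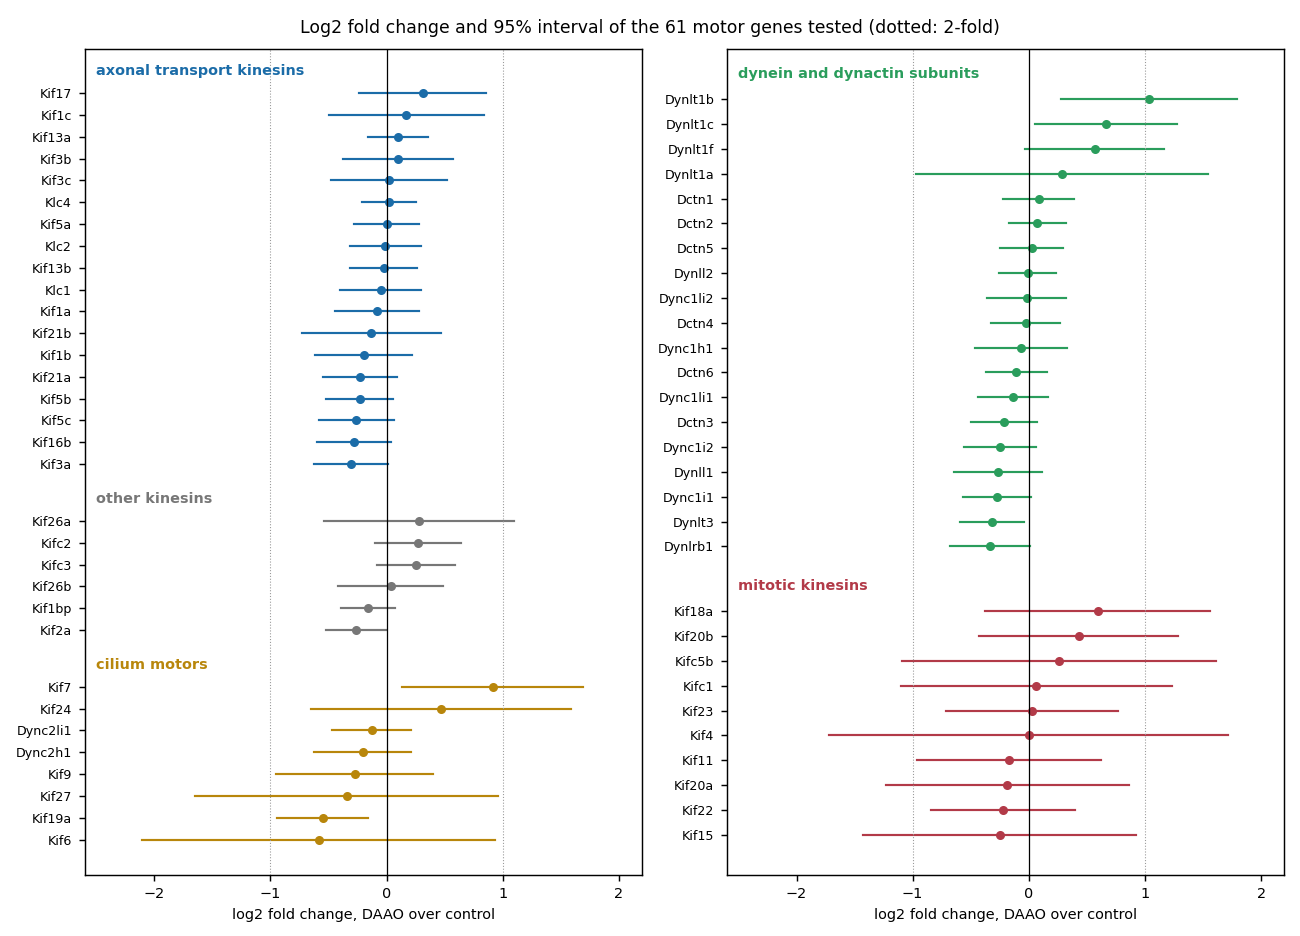
Log2 fold change (DAAO over control, horizontal axis) with its 95% interval for each of the 61 motor genes tested, grouped by role; the solid line marks no change and the dotted lines 2-fold. The 18 axonal kinesins have short intervals inside the 2-fold lines, whereas only 3 of 10 mitotic kinesins do; intervals of single genes that leave out 0 are not adjusted over genes.

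The axonal kinesins were led by kinesin-1, which carries mitochondria, vesicles and neurofilaments, and whose motor chains pair with light chains that bind cargo. Levels between genes are compared per length, as CPM per kilobase of exon. Klc1, the main neuronal light chain, had the highest level of all 69 genes, with 367 ± 68.2 CPM per kilobase in DAAO and 380 ± 80.8 in controls (SD, n = 6 each). Klc1 made up 81.2% ± 0.940 of the light chain level in DAAO and 81.5% ± 1.97 in controls. Klc2 made up 15.2% ± 0.911 in DAAO and 15% ± 1.70 in controls, and Klc4 had a log2 fold change of 0.02. Klc3 had 110 counts over the DAAO libraries and 29 over the controls, and was not tested.

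Kif5a, the neuron-specific motor chain (ENSMUSG00000074657; chromosome 10, 127225696 to 127263348, build GRCm38), had 982, 1185 and 1310 CPM as lowest, median and highest in DAAO and 977, 1145 and 1464 CPM in controls. The lowest values of both groups were close, and the control range reached higher. Kif5a had a log2 fold change of 0.00 ± 0.133 (SE; 95% interval -0.28 to 0.28; adjusted p = 0.999).

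Kif5b, the kinesin-1 chain found in all tissues, had 499, 637 and 705 CPM in DAAO and 567, 750 and 925 CPM in controls. Its log2 fold change was -0.23 ± 0.136 (adjusted p = 0.603). Kif5c, the other neuronal chain (chromosome 2, 49619298 to 49774778), had 401, 522 and 604 CPM in DAAO and 406, 658 and 799 CPM in controls, with -0.26 ± 0.153 (adjusted p = 0.605). For both genes all 6 DAAO libraries lay below the control median, and the ranges overlapped. Such counts, here and for the genes below, are given without their share over all genes. They can go with almost no change: Dctn4 also had all 6 DAAO libraries below the control median, with a log2 fold change of -0.03 (adjusted p = 0.984). Kif5a made up 51.3% ± 3.36 of the motor chain level per length in DAAO and 47.0% ± 3.69 in controls, with ranges of 46.0% to 56.0% in DAAO and 40.4% to 50.5% in controls.

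**Figure D2:**
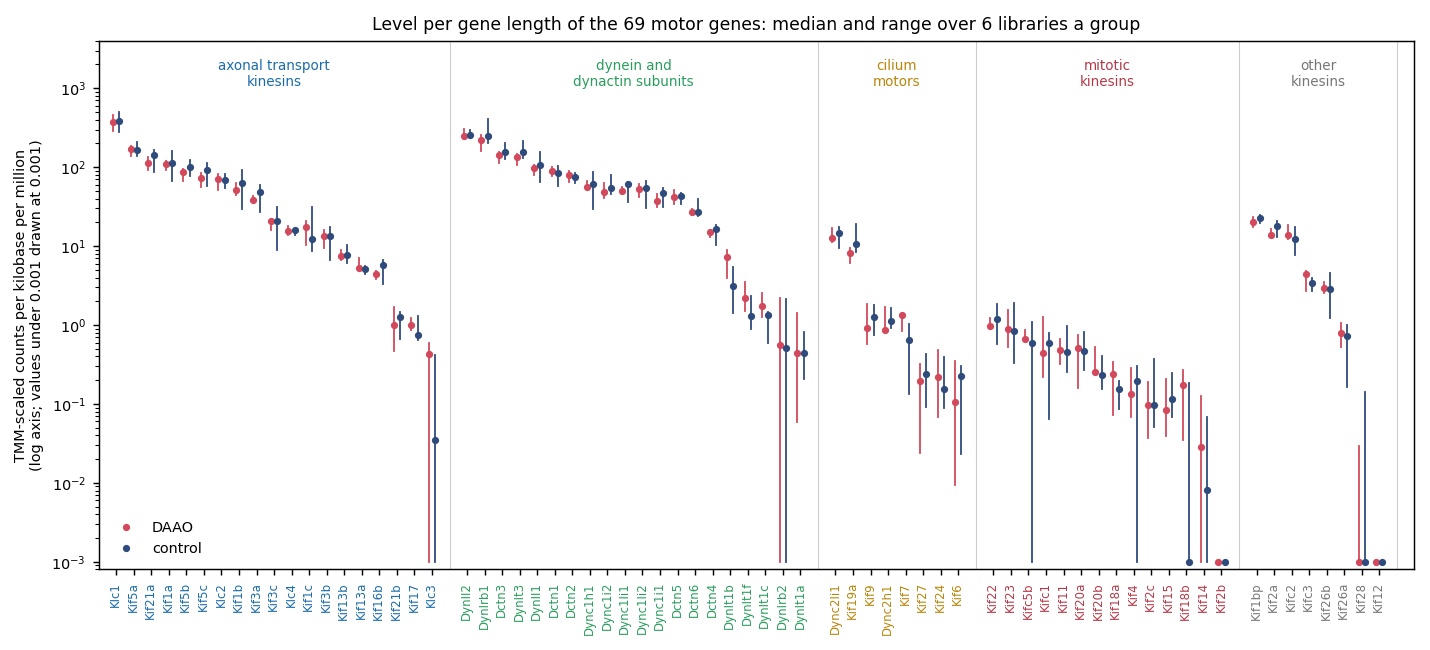
Level of each of the 69 motor genes as TMM-scaled CPM per kilobase (log axis), with the median as a point and the range over 6 libraries as a line, DAAO left of control. Klc1, Dynll2 and Dynlrb1 stand highest, the mitotic kinesins lie near or below 1, and the 2 groups overlap for every gene.

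Kinesin-3 motors carry synaptic vesicle precursors and dense-core vesicles. Kif1a, which mutations in people link to sensory neuropathy and spastic paraplegia (chromosome 1, 93015464 to 93101951), had 860, 1019 and 1108 CPM in DAAO and 626, 1054 and 1492 CPM in controls. The control range enclosed the DAAO range, and the log2 fold change was -0.09 ± 0.170 (adjusted p = 0.937). Kif1b, which also carries mitochondria, had 788, 913 and 1102 CPM in DAAO and 525, 1118 and 1620 CPM in controls. The DAAO libraries were all below the control median for Kif1b, but the control range again enclosed them, with -0.20 ± 0.198 (adjusted p = 0.829). Kif1a made up 61% ± 3.32 of the KIF1 level per length in DAAO and 59.97% ± 4.24 in controls. This share depends on the length used. Mean levels of Kif1a, Kif1b and Kif1c were 111, 56.4 and 15.4 CPM per kilobase with the deposited lengths. With the lengths of the longest transcripts they were 126, 97.0 and 16.8.

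Kif16b, an endosomal kinesin-3 (chromosome 2, 142617474 to 142901531), had 35.2, 40.0 and 43.9 CPM in DAAO and 30.2, 52.5 and 59.7 CPM in controls. Control 2 was the lowest of the 12 libraries and control 6 lay within the DAAO range, while the other 4 controls lay above every DAAO library. Its log2 fold change was -0.28 ± 0.152 (adjusted p = 0.559), and without controls 2 and 6 it was -0.47 and passed (adjusted p = 0.0270; the adjusted p ran from 0.0270 to 0.770 over 23 alternatives). The other members of the family, Kif1c, Kif13a and Kif13b, had log2 fold changes of 0.17, 0.10 and -0.03.

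Kif3a is a motor chain of kinesin-2, which works in axons and also builds cilia (ENSMUSG00000018395; chromosome 11, 53567379 to 53601967). It had 129.5, 136 and 155 CPM in DAAO and 96.7, 174 and 214 CPM in controls. The 6 DAAO libraries were tightly grouped and all below the control median, 5 of the 6 controls lay above all of them, and control 2 lay below all of them. Kif3a had a log2 fold change of -0.31 ± 0.152 (95% interval -0.63 to 0.01; adjusted p = 0.511). Without control 2 it was -0.42 and passed (adjusted p = 0.0349), and without controls 2 and 6 it was -0.45 (adjusted p = 0.0236), out of a range from 0.0236 to 0.741 over 23 alternatives.

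No other alternative of the 23 called a motor gene apart from these with control 2, or controls 2 and 6, left out. Without control 2, 1 motor gene was called, against 1.85% of all genes. Without controls 2 and 6 together 3 were called, against 3.63% of all genes: Kif3a and Kif16b as lower and Dynlt1b as higher. That pair was chosen with earlier results of these data known. Controls 2 and 6 are the controls that overlapped DAAO for Kif16b and Dynlt1b, and control 2 is the one that did for Kif3a. Leaving them out separated the groups in advance, so these passes are not separate support for a change. Kif3b and Kif3c, the partners of Kif3a, had log2 fold changes of 0.10 and 0.02 (adjusted p = 0.949 and 0.993). Kif3c overlaps 1110002L01Rik on the opposite strand over 35.3% of its exon bases, and without a stated strand setting their reads cannot be told apart. Kif3a made up 54.2% ± 4.15 of the kinesin-2 level per length in DAAO and 60.8% ± 8.13 in controls.

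Kif21a, a kinesin-4 whose human variants disturb the wiring of eye muscles, was the most abundant of its class, with 589, 736 and 863 CPM in DAAO and 558, 913 and 1062 CPM in controls. All 6 DAAO libraries were below the control median and the ranges overlapped, with a log2 fold change of -0.23 ± 0.151 (adjusted p = 0.655). Kif21b, its relative, made up 0.963% ± 0.531 of their joint level in DAAO and 0.908% ± 0.413 in controls. Kif17, a dendritic motor in mice, was counted with the axonal kinesins and had the highest log2 fold change of that class, 0.31 ± 0.258 (adjusted p = 0.768).

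**Figure D3:**
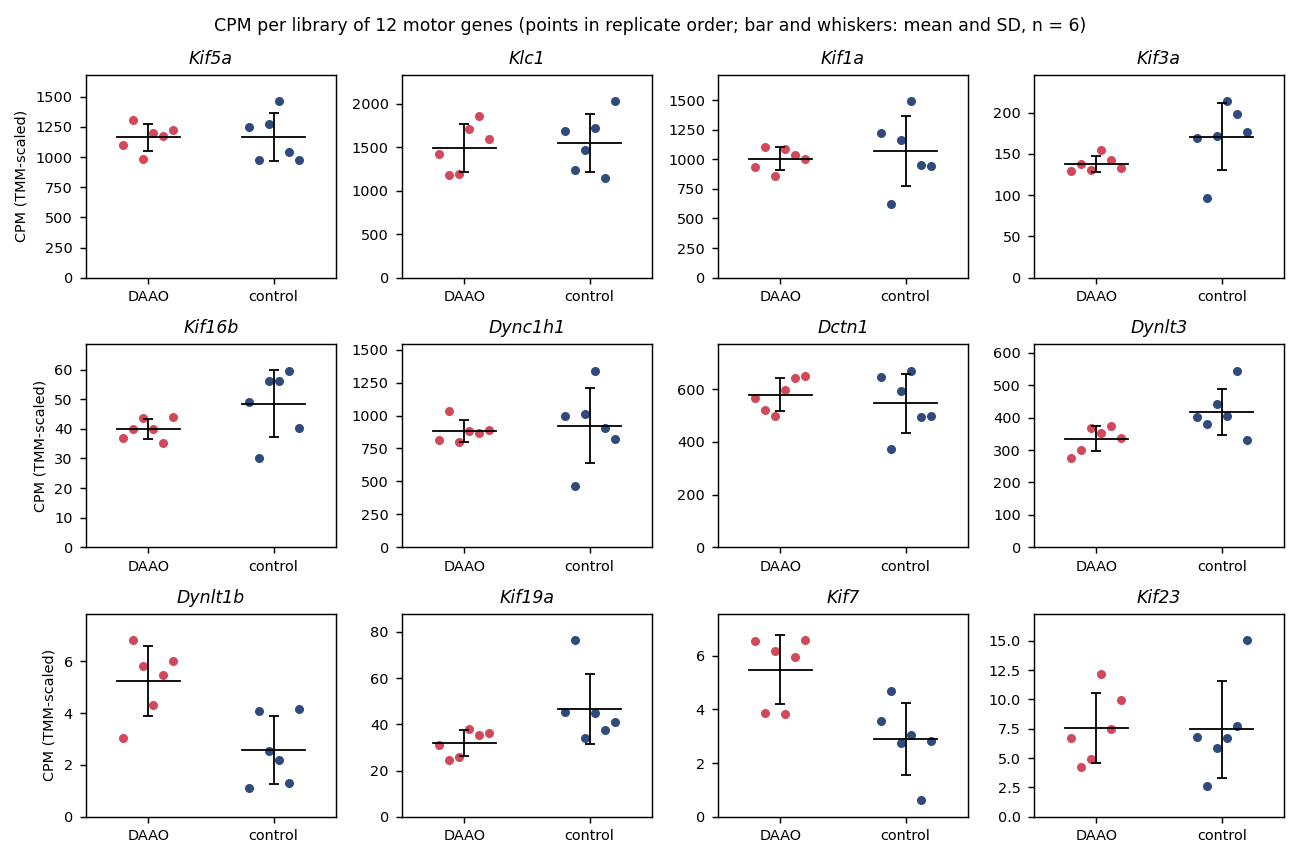
CPM of 12 motor genes in each library (points, in replicate order), with the mean as a bar and the SD as whiskers (n = 6 a group), DAAO left of control. Control 2 is the lowest library for Kif1a, Kif3a, Kif16b, Dync1h1, Dctn1 and Kif23 and the highest for Kif19a, and control libraries spread more widely than DAAO libraries for most genes shown.

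The dynein-1 complex, the motor of retrograde transport, had negative log2 fold changes for all 5 of its heavy, intermediate and light intermediate chains, and none passed. Dync1h1, the motor subunit (ENSMUSG00000018707; chromosome 12, 110601452 to 110666945), had 802, 876 and 1032 CPM in DAAO and 464, 952 and 1342 CPM in controls. Control 2 was the lowest and control 4 the highest of all 12 libraries, with the DAAO libraries between them. The log2 fold change was -0.07 ± 0.187 (95% interval -0.46 to 0.33; adjusted p = 0.961).

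Dync1i1, the neuronal intermediate chain, had 113, 135 and 165 CPM in DAAO and 112, 166 and 193.5 CPM in controls. All 6 DAAO libraries lay below the control median and the ranges overlapped, with -0.27 ± 0.139 (adjusted p = 0.530). Dync1i2, the intermediate chain found in all tissues, had 335.5, 401 and 517 CPM in DAAO and 378, 457 and 665 CPM in controls, with -0.25 ± 0.146 (adjusted p = 0.615). The share of Dync1i1 in the intermediate chain level per length was 43.1% ± 3.18 in DAAO and 43.6% ± 5.13 in controls. The light intermediate chains Dync1li1 and Dync1li2, which link dynein to its adaptors, had log2 fold changes of -0.14 and -0.02.

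Dynactin tethers dynein to microtubules and cargo. All 6 of its subunits had intervals within 1.5-fold, and none passed the test. Dctn1, the p150Glued arm (chromosome 6, 83165920 to 83200117), had 497, 582 and 650 CPM in DAAO and 371, 546 and 670.5 CPM in controls. The ranges overlapped and control 2 was the lowest library, with a log2 fold change of 0.08 ± 0.145 (adjusted p = 0.920). Dctn3, a small arm subunit, had 118, 148 and 163 CPM in DAAO and 131.5, 163.5 and 213 CPM in controls, with -0.22 ± 0.135 (adjusted p = 0.639). Dctn2, Dctn4, Dctn5 and Dctn6 lay between -0.11 and 0.07.

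Dynein light chains bind the intermediate chains and also many other proteins. Dynll2, an LC8 chain, had the second highest mean level per deposited gene length over the 12 libraries, with 256 ± 28.6 CPM per kilobase in DAAO and 258 ± 25.5 in controls, and a log2 fold change of -0.01 (adjusted p = 0.995). Dynlrb1, a roadblock chain, had 161, 224 and 260 CPM in DAAO and 204, 249 and 417 CPM in controls. Of the DAAO libraries 5 were below the control median of Dynlrb1, and the log2 fold change was -0.33 ± 0.164 (adjusted p = 0.510). Dynll1, the other LC8 chain, had -0.27 ± 0.179 (adjusted p = 0.673). Dynlrb2, the second roadblock chain, had 44 counts in DAAO and 48 in controls and was not tested.

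Dynlt3, a Tctex-type light chain (chromosome X, 9654267 to 9663003), had 276.5, 345 and 375 CPM in DAAO and 332, 403 and 545 CPM in controls. All 6 DAAO libraries lay below the control median, and the ranges overlapped. The log2 fold change was -0.32 ± 0.131, which reached an unadjusted p of 0.0266 but not the threshold over all genes (adjusted p = 0.398).

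Dynlt1, the founding Tctex-type chain, has 4 protein-coding copies on chromosome 17, and reads from the stretches they share cannot be assigned to 1 copy. The coding sequences of all 4 copies are 339 bases long; those of Dynlt1a, Dynlt1c and Dynlt1f are identical and that of Dynlt1b differs from them at 1 base. Their first 60 coding bases are given here, from the GENCODE M21 annotation of GRCm38. They hold the single coding base, in capitals, that separates Dynlt1b from the other copies.
Dynlt1a: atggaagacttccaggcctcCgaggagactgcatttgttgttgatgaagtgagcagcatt
Dynlt1b: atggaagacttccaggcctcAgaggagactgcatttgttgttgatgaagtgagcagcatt
Dynlt1c: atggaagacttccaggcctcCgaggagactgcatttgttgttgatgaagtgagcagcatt
Dynlt1f: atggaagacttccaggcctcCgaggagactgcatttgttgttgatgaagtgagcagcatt

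Of all windows of 150 bases in their transcripts, the read length of the protocol, 43.1% in Dynlt1a, 80.5% in Dynlt1b, 75.7% in Dynlt1c and 70.0% in Dynlt1f also occur in another gene. Dynlt1b (chromosome 17, 6430112 to 6436296) had 3.05, 5.65 and 6.82 CPM in DAAO and 1.11, 2.37 and 4.17 CPM in controls. All 6 DAAO libraries exceeded the control median, and DAAO 1 lay below controls 2 and 6. The log2 fold change was 1.03 ± 0.359 (95% interval 0.28 to 1.79; adjusted p = 0.277). It passed without controls 2 and 6 together (1.54, adjusted p = 0.0262, out of a range from 0.0262 to 0.548 over 23 alternatives).

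Dynlt1c (chromosome 17, 6601671 to 6609774) had 4.84, 6.58 and 9.60 CPM in DAAO and 2.25, 5.05 and 5.54 CPM in controls, with 0.66 ± 0.289 (adjusted p = 0.445). Dynlt1f (chromosome 17, 6646602 to 6655900) had 5.45, 8.02 and 12.8 CPM in DAAO and 3.28, 4.72 and 8.57 CPM in controls, with 0.57 ± 0.282 (adjusted p = 0.516). The groups overlapped for both, and Dynlt1a, the copy with the fewest counts, had 0.29 (adjusted p = 0.940). Dynlt1a overlaps Tmem181a on the opposite strand over 13.6% of its exon bases, with 457 counts against 8524 for Tmem181a. As reads of shared stretches cannot be assigned, the counts do not rank the copies by abundance. Summed to 1 row, the 4 copies had 17.3, 21.8 and 31.3 CPM in DAAO and 8.61, 13.7 and 21.6 CPM in controls, a log2 fold change of 0.66 ± 0.208 (95% interval 0.22 to 1.10) that did not pass (adjusted p = 0.209). Summing was chosen after seeing the data.

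All 8 genes of the class of cilium motors, which act in primary or motile cilia, were tested, with a median log2 fold change of -0.24, and none passed. Kif19a, whose product shortens cilia in mice (ENSMUSG00000010021; chromosome 11, 114765388 to 114790739), had 24.5, 33.2 and 38.1 CPM in DAAO and 34.1, 43.1 and 76.5 CPM in controls. Each DAAO library lay below the control median, and control 2 stood far above the other controls, of which the next had 45.4 CPM. For Kif19a the log2 fold change was -0.55 ± 0.185 (95% interval -0.94 to -0.16; adjusted p = 0.248), and without control 2 it was -0.35 (adjusted p = 0.265).

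Kif7, a regulator of Hedgehog signalling at the cilium tip (chromosome 7, 79698098 to 79715720), had 3.81, 6.05 and 6.57 CPM in DAAO and 0.606, 2.92 and 4.69 CPM in controls. All 6 DAAO libraries exceeded the control median and the ranges overlapped, with 0.91 ± 0.369 (95% interval 0.13 to 1.69; adjusted p = 0.387). It overlaps 9330171B17Rik on the opposite strand over 19.1% of its exon bases. Kif7 had 925 counts over the 12 libraries and the overlapping gene had 46.

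Dync2h1, the motor of retrograde transport inside cilia (chromosome 9, 6928503 to 7184446), had 13.4, 14.3 and 27.4 CPM in DAAO and 15.1, 18.4 and 26.9 CPM in controls. In each group 1 library stood apart, DAAO 2 in one and control 4 in the other. The log2 fold change was -0.21 ± 0.197 (adjusted p = 0.815); it was -0.40 without DAAO 2 and -0.09 without control 4, and passed in neither. Dync2li1, its light intermediate chain, had 14.97, 16.7 and 22.2 CPM in DAAO and 12.7, 19.4 and 23.1 CPM in controls, with -0.13 ± 0.161 (adjusted p = 0.877). The level of Dync1h1 per length was a median of 63.2 times that of Dync2h1 in DAAO and 52.2 times in controls. Kif6, Kif9, Kif24 and Kif27 had log2 fold changes from -0.58 to 0.47 and adjusted p of at least 0.860.

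Of the genes of motile cilia, as in ependymal cells, 8 of 14 list members were tested, with a median log2 fold change of 0.08. By edgeR, DESeq2 and limma-voom 0 were called, against 0.753%, 2.31% and 1.81% of all genes. By edgeR 0 had an unadjusted p under 0.05, against 10.3% of all genes. The smallest p were those of Cfap43 (0.52, adjusted p = 0.594), Ccdc39 (-0.40, adjusted p = 0.738) and Rsph1 (0.49, adjusted p = 0.807). The defining factor Foxj1 ran from 17.1 to 35.4 CPM in DAAO and from 9.35 to 33.2 CPM in controls. Tekt1, which was not tested, had a median of 0.499 CPM in DAAO and 0 CPM in controls, with highest values of 1.51 CPM in DAAO and 0.300 CPM in controls. It was named after its values were seen and lay near the floor, as did the other untested genes. Among those, Hydin and Rsph4a had lower mean CPM in DAAO (0.492 and 0.519) than in controls (0.567 and 0.575). Dnah5, Dnah11 and Spag17 had higher means in DAAO (0.640, 0.285 and 0.0472) than in controls (0.513, 0.213 and 0.0416).

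The mitotic kinesins had low levels. Their summed level per length was 5.27 ± 0.82 CPM per kilobase in DAAO and 5.15 ± 1.19 in controls, against 1159 ± 103 in DAAO and 1243 ± 176 in controls for the axonal kinesins. Per length, Kif5a exceeded Kif11 by a median of 334 times in DAAO and 305 times in controls. Of the 14, 10 were tested, 5 with a positive and 5 with a negative log2 fold change, and the median was 0.01.

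Dividing cells switch these genes on late in the cycle, in part through the CHR element TTTGAA near the start site, which is bound by the DREAM and MuvB complexes. The RefSeq promoters of build GRCm38.p6, from 250 bases before to 50 after the start, covered 51 of the 69 genes. The letters TTTGAA on either strand (TTCAAA on the strand shown) were in 11 of 13 mitotic kinesins with an entry, or 84.6%, against 20.2% of all 27025 genes. Within 50 bases of the start they were in 9 of 13, or 69.2%, against 5.72%. Of the axonal kinesins 1 of 14 held them, namely Kif1a, and of dynein and dynactin 1 of 14, namely Dctn1. A match describes letters and is not a shown binding site, and Kifc1 and Kifc5b share sequence. The stretch from 100 bases before to 50 after the start is printed for 4 mitotic kinesins whose values follow, with the hexamer in capitals; they lie at chr9:61946750-61946899 (minus strand), chr7:127042371-127042520 (minus strand), chr19:37376282-37376431 (plus strand) and chr19:34922258-34922407 (plus strand).
Kif23: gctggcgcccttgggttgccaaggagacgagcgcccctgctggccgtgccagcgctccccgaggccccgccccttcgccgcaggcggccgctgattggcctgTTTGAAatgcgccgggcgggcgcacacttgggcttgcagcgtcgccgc
Kif22: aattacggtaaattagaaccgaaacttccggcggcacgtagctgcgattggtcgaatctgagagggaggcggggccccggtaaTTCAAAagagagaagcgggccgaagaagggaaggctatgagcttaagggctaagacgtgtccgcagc
Kif11: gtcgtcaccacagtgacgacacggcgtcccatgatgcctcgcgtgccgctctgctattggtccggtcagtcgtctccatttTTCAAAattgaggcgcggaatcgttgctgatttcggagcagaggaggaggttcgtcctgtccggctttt
Kif20b: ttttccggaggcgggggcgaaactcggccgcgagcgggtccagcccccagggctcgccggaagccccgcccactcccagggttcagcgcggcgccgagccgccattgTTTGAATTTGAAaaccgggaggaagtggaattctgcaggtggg

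Kif23, which bundles the midzone in cytokinesis, had 4.21, 7.11 and 12.1 CPM in DAAO and 2.59, 6.73 and 15.1 CPM in controls. The control range enclosed the DAAO range, and the log2 fold change was 0.03 ± 0.351 (95% interval -0.71 to 0.77; adjusted p = 0.995). Kif22, a chromosome-arm kinesin, had 4.38, 4.75 and 6.03 CPM in DAAO and 2.86, 5.86 and 9.14 CPM in controls, with -0.23 ± 0.294 (adjusted p = 0.884). Kif11, the spindle motor Eg5, had 1.56, 2.29 and 3.18 CPM in DAAO and 1.22, 2.21 and 4.74 CPM in controls, with -0.17 ± 0.375 (adjusted p = 0.946). For Kif20b all 6 DAAO libraries exceeded the control median, with 1.64 to 3.70 CPM in DAAO and 1.08 to 2.83 CPM in controls, and a log2 fold change of 0.43 ± 0.405 (adjusted p = 0.812).

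The other tested mitotic kinesins, Kif4, Kif15, Kif18a, Kif20a, Kifc1 and Kifc5b, had log2 fold changes from -0.25 to 0.59 and adjusted p of at least 0.741. Kifc1 and its near copy Kifc5b, summed to 1 row, had 0.16 (adjusted p = 0.925). Cdc23 and Pdzd11 overlap 29.3% and 15.1% of the exon bases of Kif20a and Kif4 on the opposite strand. Without a stated strand setting, reads from these stretches cannot be told apart. Over the 12 libraries Kif20a had 395 counts and Cdc23 6859, and Kif4 had 196 and Pdzd11 8923. Kif18b, which acts on the astral microtubules of the spindle, had 66 counts over the 6 DAAO libraries, each with 3 to 16, and 16 counts over the 6 controls, of which 4 had 0. It was under the filter and not tested, as were Kif14 (59 counts in DAAO, 30 in controls) and Kif2c (52 in DAAO, 65 in controls). Kif2b had 0 counts in every library.

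The cell division genes are 20 cyclins, spindle and cytokinesis genes that are not motors. Among 19 tested, 0 were called by edgeR, DESeq2 or limma-voom, against 0.753%, 2.31% and 1.81% of all genes. By edgeR 1 had an unadjusted p under 0.05, against 10.3% of all genes. Log2 fold changes of the 19 were positive in 13 and negative in 6 (31.6%, against 49.6% of all genes), with a median of 0.40. Prc1, the midzone bundler that works with kinesin-4, had 3.45, 4.70 and 7.44 CPM in DAAO and 1.21, 2.73 and 3.29 CPM in controls. The groups did not overlap for Prc1, as in 0.918% of all genes with DAAO higher, and the log2 fold change was 1.06 ± 0.328 (adjusted p = 0.195). Ccnb1, cyclin B1, had 1.74 ± 0.846 (adjusted p = 0.505) and Birc5, survivin, had -0.83 ± 0.406 (adjusted p = 0.510).

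**Figure D4:**
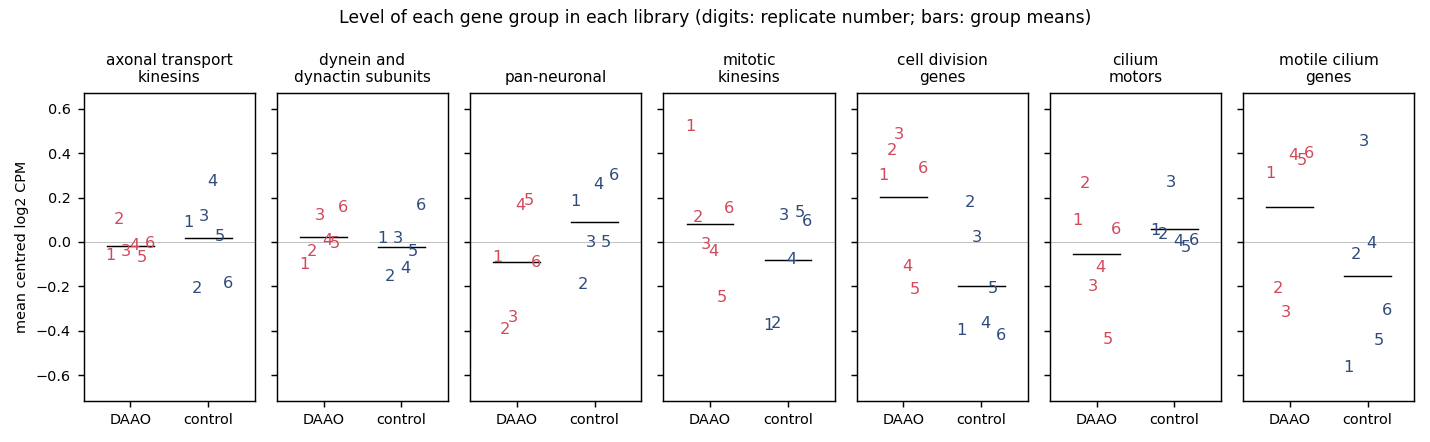
Level of each gene group in each library, as the mean over its tested members of the log2 CPM centred over all libraries; digits are replicate numbers, bars are group means, and DAAO stands left of control. The groups overlap in all 7 panels; axonal kinesins ran from -0.07 to 0.10 in DAAO and from -0.21 to 0.27 in controls.

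The other kinesins divide microtubule remodellers from minus-end motors. Kif2a, which takes microtubules apart and prunes axon branches (chromosome 13, 106958996 to 107022126), had 83.5, 89.0 and 106 CPM in DAAO and 83.3, 115 and 131 CPM in controls. Each DAAO library lay below the control median, and control 2 was the lowest library. The log2 fold change was -0.26 ± 0.123, with an unadjusted p of 0.0476 and an adjusted p of 0.477; Dimt1 overlaps 19.2% of its exon bases on the opposite strand. Kifc2 and Kifc3, minus-end kinesins, had 0.27 and 0.25 (adjusted p = 0.653 and 0.643). Kif1bp, which binds and inhibits several kinesins, had 86.5, 97.5 and 113 CPM in DAAO and 96.4, 110 and 122 CPM in controls, with -0.16 ± 0.110 (adjusted p = 0.691). Kif26a and Kif26b, which lack motor activity, had 0.28 and 0.04; Kif28 had 2 counts in DAAO and 11 in controls, and Kif12 had none.

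Adaptors and regulators connect motors to cargo. Of 40 listed genes all were tested and 0 were called by edgeR, against 0.753% of all genes. An unadjusted p under 0.05 was reached by 4, against 10.3% of all genes. All 4 were lower in DAAO, against 4.87% of all genes; the median log2 fold change was -0.05 and 35 intervals lay within 1.5-fold. Bicd1, an adaptor of dynein and dynactin, had 54.3, 63.1 and 74.6 CPM in DAAO and 64.4, 89.4 and 114 CPM in controls. The ranges overlapped, and the log2 fold change was -0.53 ± 0.136 (adjusted p = 0.0928). DESeq2 and limma-voom each called 1 adaptor, Bicd1 (adjusted p = 0.0151 and 0.0175), and so did edgeR without control 2 (-0.61, adjusted p = 0.0109). Over all genes the share called in these 3 fits was 2.31%, 1.81% and 1.85%. For Bicd1 the adjusted p ran from 0.00731 to 0.261 over the alternatives.

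Fez2, a kinesin-1 adaptor, had 76.3, 83.9 and 92.8 CPM in DAAO and 95.6, 101 and 114 CPM in controls. The groups did not overlap, as in 0.529% of all genes with DAAO lower, and the log2 fold change was -0.30 ± 0.097 (adjusted p = 0.226). Kifap3, the cargo subunit that joins Kif3a and Kif3b, had 258, 293 and 309 CPM in DAAO and 264, 346 and 390.5 CPM in controls, with -0.27 ± 0.115 (adjusted p = 0.428). It passed without controls 2 and 6 together (-0.36, adjusted p = 0.0487, the lowest of its alternatives, of which the highest was 0.693).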

How the data were processed

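Total RNA of 12 libraries was sequenced, and the values deposited by the authors are raw counts, whole numbers of reads for each gene. Per the submitters' processing notes, the tools were HISAT2 2.0.5, FastQC and DESeq2 1.20.0, on build GRCm38 (mm10). Not given in the sources used here are the counting program, whether it used strand, and which annotation it read.

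Genes were kept with edgeR's filterByExpr (minimum count 10, minimum total count 15), which left 17002 of 54532. The test was the two-sided quasi-likelihood F test of edgeR 4.0.16 (robust, TMM scaling, R 4.3.3) of 6 DAAO against 6 control libraries. P-values were adjusted by Benjamini-Hochberg over the 17002 genes, and adjusted p under 0.05 was called. Log2 fold changes are DAAO over control, with the SE as their size over the square root of F. Levels per length divide the TMM-scaled CPM by the deposited gene length. The members, their roles, the lists and the alternatives were chosen with earlier results of these data known. Values in full are given for the 12 tested members with the smallest p, the 2 highest members of each class per length and 13 core chains, and for up to 3 members of each other list; any others were chosen after their values were seen. The 66 pairs of libraries all differed by more than sampling noise (smallest chi-square per degree of freedom 19.8).

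Other scalings, DESeq2 1.42.0, limma-voom (limma 3.58.1), other filters, covariates for neuronal, oligodendrocyte and muscle levels, the replicate block and each library left out served as alternatives. Some marker lists have medians not given elsewhere. Median log2 fold changes were -0.75 (6 proprioceptor genes), -0.50 (9 myelinating Schwann cell genes), -0.43 (5 satellite glia genes) and -0.51 (6 oligodendrocyte genes). They were -2.43 (8 skeletal muscle genes), 0.72 (7 macrophage genes), 0.47 (5 fibroblast genes) and -0.28 (5 endothelial genes). By edgeR 3 of the 6 proprioceptor genes were called lower in DAAO, against 0.247% of all genes, and 0 genes of these other lists were called. The muscle genes had a median SE of 1.46, and the macrophage genes went both ways (5 positive, 2 negative). Promoters come from RefSeq and transcripts from GENCODE M21, whose gene starts and ends match the table for 65 of 69 members.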

Additional observations from a re-analysis of the deposited data

Results flagged for a closer look

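In the groups of 6 libraries, 3 of 58 gene-and-group combinations among the named motor genes had 1 library far from the others, where chance gives about 1 in 20. Dync2h1 stood at 27.4 CPM in DAAO 2, with 17.2 CPM in the nearest DAAO library. Dync2h1 also stood at 26.9 CPM in control 4, with 18.7 CPM in the nearest control. Kif19a stood at 76.5 CPM in control 2, with 45.4 CPM in the nearest control.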

How the results depend on the processing

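The count of all genes called, 128, was 362 with DESeq2, 307 with limma-voom and 648 without controls 2 and 6 together. With 1 library left out it ran from 61 to 322; it was 78, 65, 73 and 61 without DAAO 1, 2, 3 and 6, and 80, 322 and 77 without controls 1, 2 and 5. Motor genes called ran from 0 to 1 lower with 1 library left out (Kif3a, -0.42, without control 2) and were 2 lower (Kif3a, -0.45, and Kif16b, -0.47) and 1 higher (Dynlt1b, 1.54) without controls 2 and 6; the cause was not tested. Adaptors called were 1 with DESeq2, 1 with limma-voom, between 0 and 1 with 1 library left out, and 2 without controls 2 and 6. Leaving out controls 2 and 6 as a pair was chosen with earlier results of these data known. In the other alternatives 0 motor genes were called. Over the 23 alternatives the median log2 fold change ran from -0.15 to 0.00 in axonal kinesins, from -0.22 to 0.24 in mitotic kinesins, from -0.11 to 0.03 in dynein and dynactin and from -0.34 to -0.14 in cilium motors; that of the other kinesins was not recomputed. With the lengths of the longest transcripts, chosen after seeing the data, 8 of the 10 highest genes per length stayed among them. The shares within families use the deposited lengths only, and their SDs do not cover the choice of length. The replicate block gave 187 calls over all genes (1.1%) and 0 motor genes. Deviations correlated above 0.1 in 2 of 6 same-numbered pairs, and 2 DAAO libraries correlated best with their own number. The labels do not say whether same-numbered libraries are paired, and these correlations cannot decide it. The median SE of the mitotic kinesins was 0.477 on the log2 scale, and that of the axonal kinesins 0.152.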

Other observations

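The coefficient of variation (CV) was smaller in DAAO than in controls for 42 of the 61 motor genes tested, or 68.9%, and for 78.8% of all genes. The median CV of the motor genes was 15% in DAAO and 27.7% in controls. Control 2 was the lowest of the 12 libraries for 16 of the 61 motor genes (26.2%, against 19.4% of all genes), among them Kif1a, Kif1b, Kif3a, Kif21a, Dync1h1, Dync1i1 and Dctn1. The median gene length of those 16 was 6937.5 bases, and that of the other 45 was 4795 bases; over all genes the corresponding lengths were 5930 and 3639.5 bases. By mean centred log2 CPM, control 2 was the highest of the 12 libraries for oligodendrocyte (3.11), myelinating Schwann cell (1.16) and satellite glia markers (0.799). Its pan-neuronal level of -0.193 was the lowest of the controls but above those of DAAO 2 and 3. Whether these levels bear on its motor genes was not tested. Control 4 was the highest library for 14 motor genes (23%, against 10.7% of all genes).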
